A study of Rattus norvegicus with 24 samples.

Results

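The transforming growth factor beta (TGF-beta) and bone morphogenetic protein (BMP) genes were followed in the kidney of male stroke-prone spontaneously hypertensive rats (SHR-SP). The members were 10 named genes: the ligands Tgfb1, Tgfb2, Tgfb3 and Bmp6, the receptors Tgfbr1, Tgfbr2 and Tgfbr3, the BMP antagonist Grem1, the inhibitory SMAD Smad7 and the matrix gene Ccn2. They were found by gene symbol in the array annotation, which gave 15 of the 15923 probe sets on the array, for 9 of the 10 genes. No probe set carried the symbol Tgfbr2 in the annotation used, and that gene was not analysed here. Of the 15 probe sets, 11 passed the filter on low signals, for 8 genes, among 10208 probe sets tested in all.

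All animals were of the SHR-SP strain, in which hypertension is inherited, so the normal diet groups were hypertensive-strain animals too and no normotensive strain was among the groups. From 11 weeks of age they ate either normal powdered chow with water or a high salt+fat diet (the salt+fat diet), which combined chow of 24.5% fat with 1% NaCl as drinking water. Kidneys were taken after 2 weeks (13 weeks of age) or 8 weeks (19 weeks of age), with 6 animals in each of the 4 groups and 1 array per animal. Salt and fat were given together, so their separate effects cannot be told apart, and time on the diet cannot be told apart from age.

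Ligands of the TGF-beta branch are secreted in a latent form, held in the matrix by latent binding proteins, and signal once released through a pair of receptor kinases, Tgfbr2 and Tgfbr1, to SMAD2 and SMAD3. BMP ligands use related receptors and SMAD1, SMAD5 and SMAD9. Both branches share SMAD4, and both induce inhibitors of themselves. In the kidney the TGF-beta branch is known for its part in scarring, and BMP7 and its antagonists for their part in tubular repair.

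The promoters of 3 members are printed because the diet comparisons called 2 of them, Grem1 and Tgfbr1, and because Ccn2 is the classical TGF-beta target of the set. Each is a window of 250 bases on the rat assembly GRCr8, 5′ to 3′ on the strand of the gene. They are chr3:120978320-120978569 on the minus strand for Grem1, chr5:66449148-66449397 on the plus strand for Tgfbr1 and chr1:22624615-22624864 on the minus strand for Ccn2. The Grem1 and Ccn2 windows end just before the gene's start in RefSeq. The Tgfbr1 window runs past the listed start of the gene, 66449348, so its last bases lie within the gene. All 10 members had a promoter in the table. Capitals mark matches, on either strand, to the SMAD element CAGAC, the GC-rich BMP SMAD element GGCGCC, the TEAD element GGAATG and the TATA box TATAAA.
Grem1: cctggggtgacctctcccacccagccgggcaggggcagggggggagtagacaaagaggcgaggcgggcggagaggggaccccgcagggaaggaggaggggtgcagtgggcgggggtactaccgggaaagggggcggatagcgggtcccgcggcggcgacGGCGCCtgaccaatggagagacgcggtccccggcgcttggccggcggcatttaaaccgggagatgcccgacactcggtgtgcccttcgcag
Tgfbr1: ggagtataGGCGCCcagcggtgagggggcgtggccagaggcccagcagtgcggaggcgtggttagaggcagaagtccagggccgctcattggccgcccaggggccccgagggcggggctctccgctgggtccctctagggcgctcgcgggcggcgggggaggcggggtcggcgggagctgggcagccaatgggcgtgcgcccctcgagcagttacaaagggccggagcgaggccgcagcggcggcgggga
Ccn2: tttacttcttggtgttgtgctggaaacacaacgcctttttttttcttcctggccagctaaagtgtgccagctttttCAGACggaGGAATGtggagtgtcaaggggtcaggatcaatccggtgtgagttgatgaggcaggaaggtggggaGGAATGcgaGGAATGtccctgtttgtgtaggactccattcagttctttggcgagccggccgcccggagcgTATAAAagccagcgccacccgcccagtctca
The Grem1 window held 1 BMP SMAD element, starting 91 bases before the gene, and the Tgfbr1 window held 1, starting at position 9 of the window. In the Ccn2 window a SMAD element started 174 bases before the gene, 3 TEAD elements 166, 101 and 92 bases before it and a TATA box 31 bases before it. Among 33469 promoters searched over the same length, 42.9% held the SMAD element, 8.69% the BMP SMAD element, 12.1% the TEAD element and 12.9% the TATA box. Of the 10 members, 4 held the BMP SMAD element (Grem1, Tgfbr1, Tgfbr3 and Smad7), and the other 3 motifs were each found in Ccn2 alone. The windows of Grem1 and Tgfbr1 had GC contents of 72.0% and 75.6%, against 53.2% for Ccn2 and a median of 51.2% over all promoters. These matches describe the letters in the windows, and binding was not measured.

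The arrays were scaled alike, with median signals between 68.7 and 78.7. A pair of arrays stood apart, numbers 1 and 2 of the normal diet at 8 weeks: the first percentile of their signals was 2.4 and 3, where the remaining arrays had 0.7 to 1.2. The summed signal of 7 kidney markers ranged from 9825 to 12465 over all arrays, a sum that holds Umod of the thick ascending limb and in which single tubular markers moved in both directions. At each time limma called 2 of the 7 higher on the salt+fat diet and 2 lower: at 2 weeks Aqp2 of the collecting duct differed by 1.16 and Slc12a1 of the thick ascending limb by 0.54, and the proximal tubule genes Lrp2 and Slc5a2 by −0.26 and −0.43. A fat index (Fabp4, Cfd and Car3, genes of fat cells, averaged as standardised log2 signals) differed by −1.72 SD units between the salt+fat and normal diets at 2 weeks (exact two-sided permutation p = 0.00866, adjusted over 8 tests 0.0346). At 8 weeks it differed by 0.23 (exact permutation p = 0.662). The summed signal of 7 adipocyte markers was 250.3 to 1884 on the normal diet at 2 weeks and 164 to 286.8 on the salt+fat diet. The 3′ to 5′ ratio of the GAPDH control, a measure of RNA integrity, was 1.22 ± 0.094 against 1.09 ± 0.074 (SD, n = 6) at 2 weeks (exact permutation p = 0.0152, adjusted 0.0404). The spike-in level also differed at 2 weeks, by −0.30 on the log2 scale (exact permutation p = 0.00216, the smallest the design can give, adjusted 0.0173). Its 8-week difference was 0.23, in the other direction (exact permutation p = 0.0476, adjusted 0.0952). At 8 weeks the summed signal of 10 fibroblast and myofibroblast markers was 1366 to 1817 on the normal diet and 1992 to 3821 on the salt+fat diet, and 5 of 8 tested markers were called higher. The summed signal of 9 macrophage markers was 2460 to 3079 and 3055 to 4001 on these diets at 8 weeks, and 3 of 8 tested were called higher, Cd68 (0.90), C1qa (0.57) and Lyz2 (0.32). Lyz2 made up most of that sum, with means of 1971 and 2465. The tested macrophage markers not called ran from −0.12 (Aif1) to 0.51 (C1qb). Of all probe sets tested, 5.63% were called higher at 8 weeks. RNA came from whole kidneys, in which fewer cells of a type and less RNA per cell cannot be told apart.

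Signals are MAS5 values in arbitrary units. Differences are of log2(signal + 7.2), which understates the change of dim probe sets, given ± SE from limma fitted to all 24 arrays, and those with an adjusted p under 0.05 (Benjamini-Hochberg, over the 10208) count as called. Few of the members were called for diet. At 2 weeks Grem1 was higher and 1 probe set of Tgfbr1 lower on the salt+fat diet, so that 2 of 11 probe sets (18.2%) were called against 8.74% of all probe sets tested, 1 of them higher (4.55% of all) and 1 lower (4.19%). Before adjustment 3 of the 11 had a p under 0.05, against 22.8% of all. At 8 weeks limma called 0 of the 11 against 9.14% of all, and 2 had an unadjusted p under 0.05, against 23.7%. For the difference between the diet effects at 8 and 2 weeks (the interaction) limma called 0 of the 11 against 0.382% of all, and 3 had an unadjusted p under 0.05, against 11.6%. The median difference over the 11 was −0.07 at 2 weeks and 0.03 at 8 weeks, beside 0.02 and −0.0015 over all probe sets tested. No member's 6 arrays on one diet lay wholly beyond the 6 on the other at either time. Of all probe sets 4.85% did so at 2 weeks and 3.35% at 8 weeks, so 0 of 11 is near those shares.

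**Figure D1:**
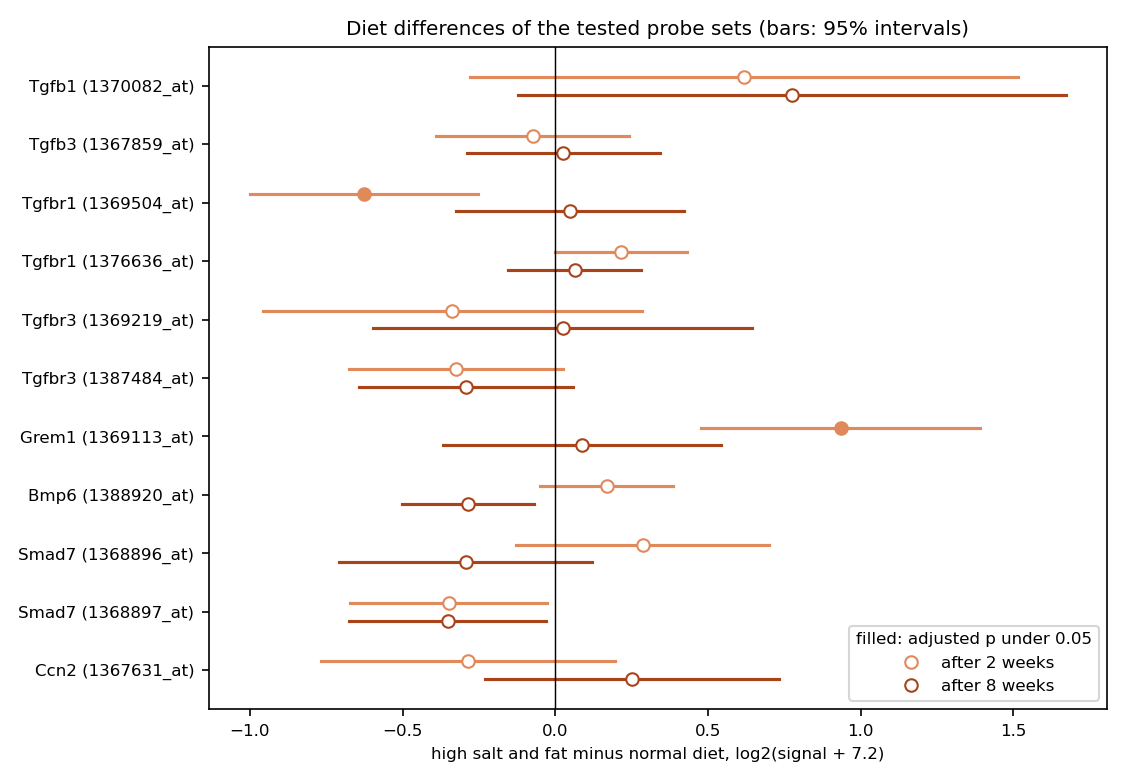
Diet differences of the 11 tested probe sets, as salt+fat minus normal diet on the log2(signal + 7.2) scale, after 2 weeks (light) and 8 weeks (dark). Points are fitted differences, bars are 95% intervals, and filled points passed an adjusted p of 0.05: Grem1 at 0.93 and Tgfbr1 (1369504_at) at −0.63, both after 2 weeks.

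Grem1 encodes gremlin, a secreted antagonist that binds BMP ligands and keeps them from their receptors. Its probe set (1369113_at) ran from 43.2 to 171.6 with a median of 86.1 on the normal diet at 2 weeks, and from 121.4 to 241.9 with a median of 179.9 on the salt+fat diet. All 6 salt+fat arrays exceeded the normal diet median, and the groups overlapped through the upper 2 of the normal diet arrays. At 8 weeks the normal diet arrays ran from 156.6 to 306.6 with a median of 233.1, and the salt+fat arrays from 199.7 to 288.9 with a median of 242.3. These 8-week groups overlapped over most of their range, and the lowest levels of the series were those of the normal diet at 2 weeks. In order, the group means were 100.4 ± 52.2 on the normal diet at 2 weeks, 182.8 ± 43.1 on the salt+fat diet at 2 weeks, 229.4 ± 49.0 on the normal diet at 8 weeks and 241.7 ± 36.1 on the salt+fat diet at 8 weeks (SD, n = 6).

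The diet difference of Grem1 was 0.93 ± 0.22 at 2 weeks, a fold of 1.91 (limma adjusted p = 0.00824), and 0.09 ± 0.22 at 8 weeks (adjusted p = 0.861). The 2 differences were not shown to differ: the interaction was −0.85 ± 0.31 (unadjusted p = 0.0119, limma adjusted p = 0.277). On the normal diet Grem1 rose from 2 to 8 weeks by 1.26 ± 0.22, a fold of 2.39 (adjusted p = 0.0262), and ranked 2 by p among the 10208 probe sets, of which 4 (0.0392%) were called in that comparison, 0.0294% as higher. On the salt+fat diet the difference over time was 0.41 ± 0.22 (adjusted p = 0.361). Neither the diet difference at 8 weeks nor the change over time on the salt+fat diet was called. That does not show that the means were equal. On the salt+fat diet all 6 arrays at 8 weeks exceeded the 2-week median, although the groups overlapped (limma unadjusted p = 0.0767). At 8 weeks 4 of the 6 salt+fat arrays exceeded the normal diet median.

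The Grem1 difference at 2 weeks stayed between 0.74 and 1.11 when each of the 12 arrays was left out, with adjusted p of at most 0.0274. With the fat index in the model it was 0.53 ± 0.27 (limma adjusted p = 0.323), with the GAPDH ratio 0.88 (adjusted p = 0.0671) and with the spike-in level 0.82 (adjusted p = 0.0849). In the normal diet group at 2 weeks the fat index of the 6 arrays was 1.92, 1.82, 1.11, 0.60, 0.47 and −0.53. The Grem1 signals of these arrays, in the same order, were 98.6, 60.5, 43.2, 154.8, 73.6 and 171.6. The relation within the group was not tested. The rise over time on the normal diet lost its call in 8 of 12 fits that left out 1 array (arrays 1, 2 and 4 at 2 weeks and arrays 2 to 6 at 8 weeks), with differences of 1.07 to 1.43 and adjusted p up to 0.145. It was 1.27 (adjusted p = 0.0354) without normal diet arrays 1 and 2 at 8 weeks together. With the fat index in the model it was 1.01 (adjusted p = 0.141).

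**Figure D2:**
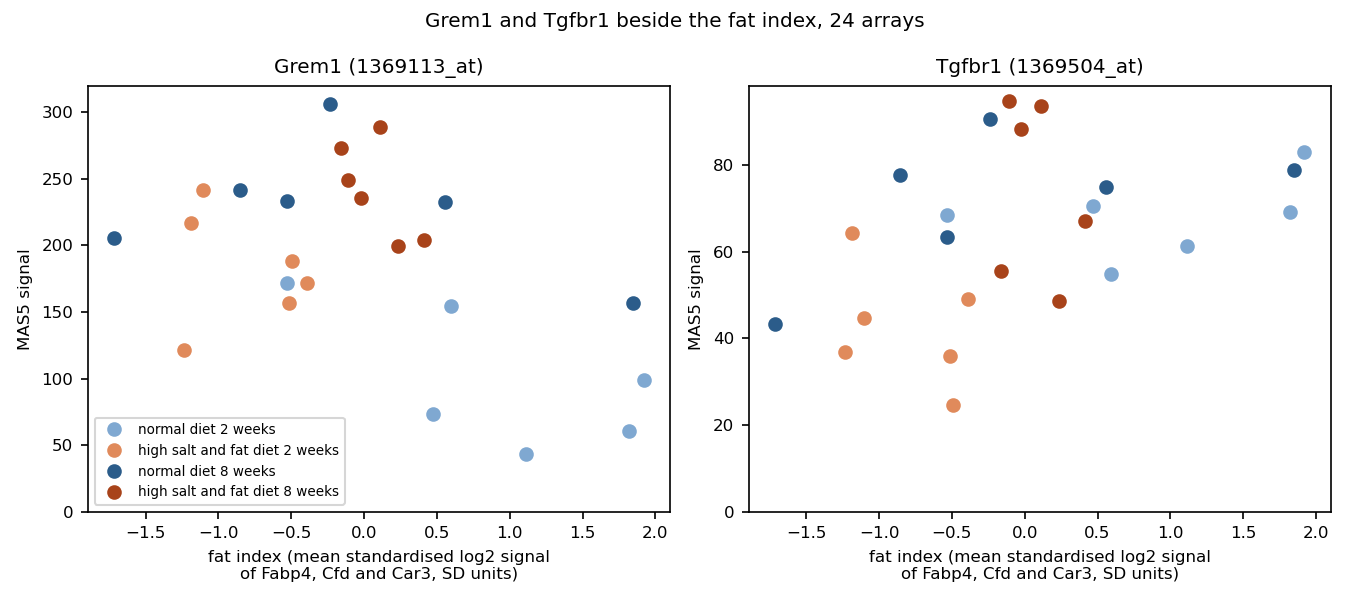
MAS5 signal of Grem1 (left) and of Tgfbr1 probe set 1369504_at (right) against the fat index, 1 point per array and 24 arrays, coloured by group. At 2 weeks the normal diet arrays lie at fat indices of −0.53 to 1.92 and the salt+fat arrays at −1.24 to −0.39.

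Tgfbr1 is the kinase receptor that phosphorylates SMAD2 and SMAD3, and it was measured by 2 probe sets that did not move together. Probe set 1369504_at ran from 54.8 to 82.9 with a median of 68.8 on the normal diet at 2 weeks, and from 24.7 to 64.2 with a median of 40.8 on the salt+fat diet. All 6 salt+fat arrays lay below the normal diet median, with some overlap at the edge. At 8 weeks it ran from 43.4 to 90.7 on the normal diet and from 48.6 to 94.7 on the salt+fat diet, with medians of 76.25 and 77.65. The diet difference was −0.63 ± 0.18 at 2 weeks (limma adjusted p = 0.0300) and 0.05 ± 0.18 at 8 weeks (adjusted p = 0.912). The interaction was 0.68 ± 0.26 (unadjusted p = 0.0141, limma adjusted p = 0.289).

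On the salt+fat diet the same probe set rose between 2 and 8 weeks by 0.72 ± 0.18 (limma adjusted p = 0.0211), the 1 member called of 11 in that comparison against 3.53% of all probe sets. On the normal diet the difference over time was 0.05 ± 0.18 (adjusted p = 0.964). Leaving out 1 array ended the 2-week diet call in 7 of 12 fits (normal diet arrays 2, 3, 4 and 6, salt+fat arrays 2, 3 and 4), with differences of −0.74 to −0.51 and adjusted p up to 0.0897. The change over time lost its call in 4 of 12 such fits (arrays 2 and 3 at 2 weeks, arrays 3 and 5 at 8 weeks). The 2-week difference was −0.48 (adjusted p = 0.313) with the fat index in the model and −0.33 (adjusted p = 0.419) with the GAPDH ratio.

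The other Tgfbr1 probe set, 1376636_at, ran from 153.2 to 214.7 on the normal diet and from 187.9 to 247.6 on the salt+fat diet at 2 weeks, with medians of 187.55 and 219.85. Here all 6 salt+fat arrays lay above the normal diet median, and the difference of 0.22 ± 0.11 was not called (unadjusted p = 0.0515, limma adjusted p = 0.222). At 8 weeks the medians were 207.75 and 229.25 and the difference was 0.06 ± 0.11 (adjusted p = 0.772). The log2 ratio of 1369504_at to 1376636_at within each array was lower on the salt+fat diet at 2 weeks by 0.84 (exact two-sided permutation p = 0.00649, adjusted over 6 tests 0.0390). All 6 arrays lay below the normal diet median of that ratio. At 8 weeks the ratio differed by −0.02 (exact permutation p = 0.970). This test of the ratio was chosen after the values were seen. The mean of both probe sets gave −0.21 ± 0.10 at 2 weeks (limma adjusted p = 0.212) and 0.36 ± 0.10 for time on the salt+fat diet (adjusted p = 0.0387), so no single direction of Tgfbr1 at 2 weeks held for both probe sets.

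**Figure D3:**
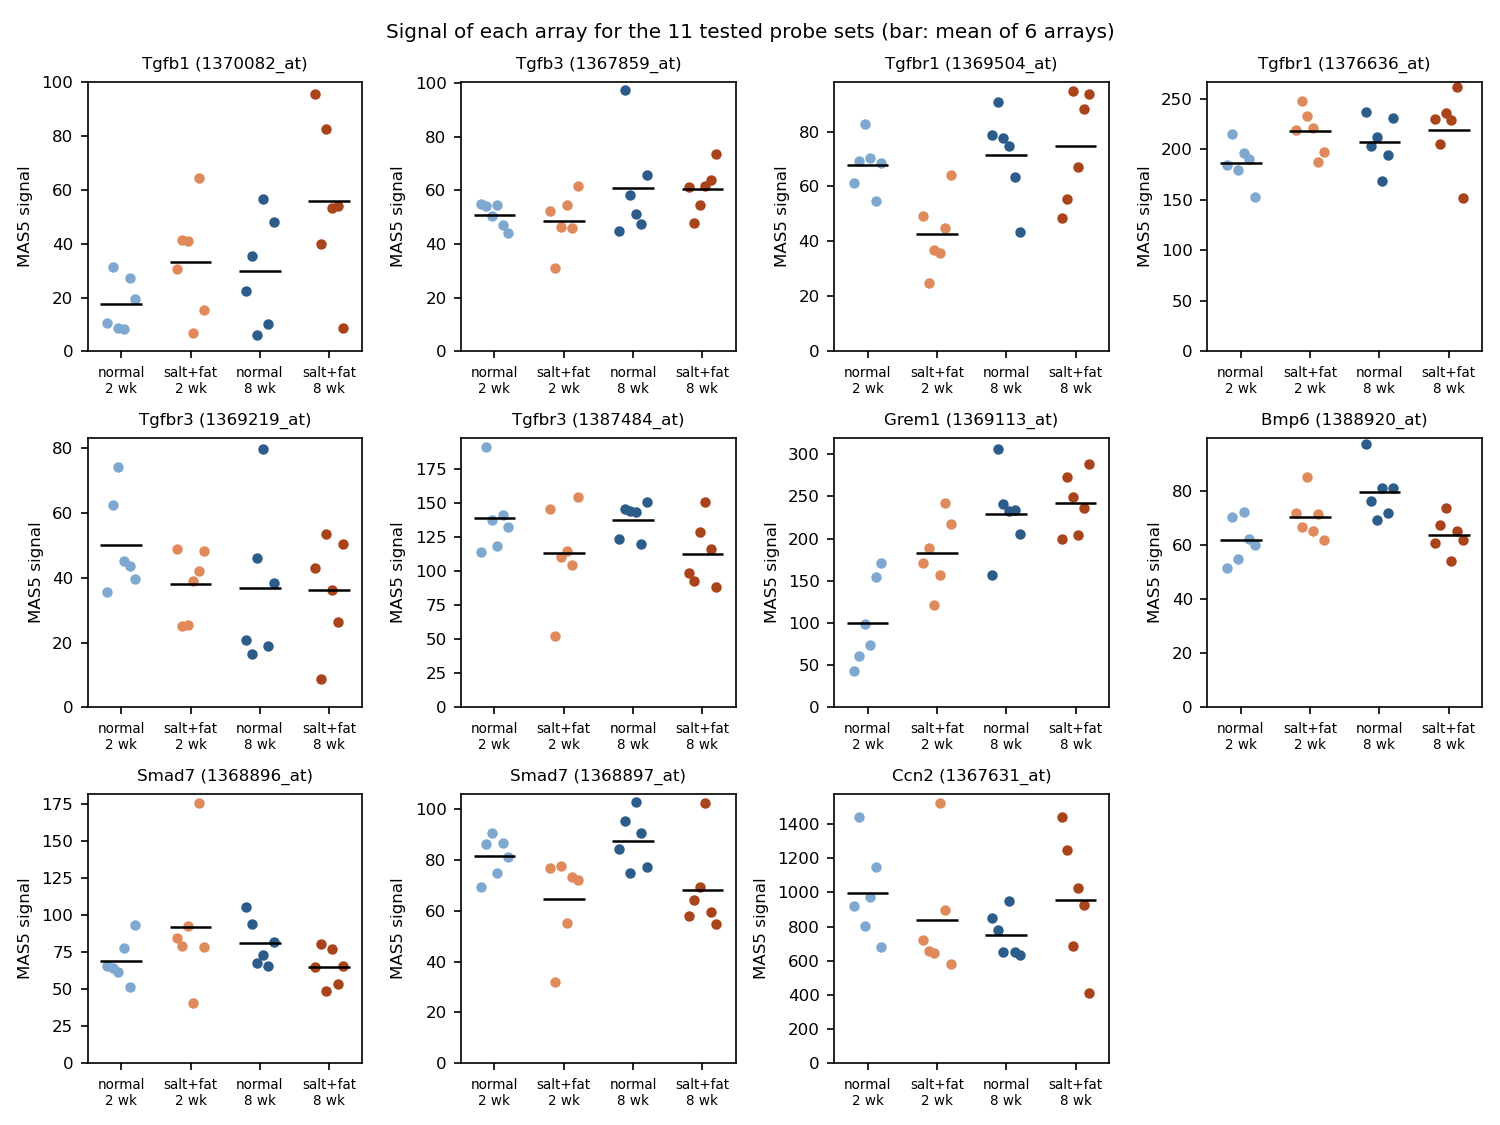
MAS5 signal of each array for the 11 tested probe sets of the members, by group, with 6 arrays a group and a bar at the group mean. Grem1 is lowest on the normal diet at 2 weeks (mean 100.4), and Tgfbr1 probe set 1369504_at is lowest on the salt+fat diet at 2 weeks (mean 42.6). The diets overlap at each time for every probe set, for Bmp6 at 8 weeks only between 69.3 and 74.

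No ligand among the members was called in any of the 5 comparisons. Tgfb1, the main ligand of the branch in kidney scarring, had dim and scattered signals from 6 to 95.8, and 7 of 24 arrays lay above the filter's level, the 40th percentile of the array (44.48 to 54.5). By group these were 0 and 1 on the normal and salt+fat diets at 2 weeks, and 2 and 4 at 8 weeks. The filter needed 6 arrays, so this probe set would not have been tested without the salt+fat arrays at 8 weeks, its highest group. Its group medians were 14.95 and 35.7 on the normal and salt+fat diets at 2 weeks and 29 and 53.6 at 8 weeks. On each occasion 5 of 6 salt+fat arrays exceeded the normal diet median. The differences were 0.62 ± 0.44 at 2 weeks (limma adjusted p = 0.427) and 0.78 ± 0.44 at 8 weeks (adjusted p = 0.292), with 95% intervals of −0.28 to 1.52 and −0.12 to 1.67, both of which hold 0.

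Tgfb3, a ligand of the same receptors, had group medians of 52.35, 49.45, 54.8 and 61.55 in the order normal and salt+fat diet at 2 weeks, then at 8 weeks. Its diet differences were −0.07 ± 0.15 (limma adjusted p = 0.818) and 0.03 ± 0.15 (adjusted p = 0.942). Tgfb2, the third ligand, was below the filter on both of its probe sets: 1387172_a_at ran from 5.8 to 34.5 with 0 of 24 arrays above the 40th percentile, and 1388011_a_at from 17.5 to 55.7 with 2 of 24. Without the filter the Tgfb2 diet differences lay between −0.26 and 0.17, with limma adjusted p of 0.505 to 0.988.

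Bmp6, a BMP ligand known for its part in iron control, was measured on probe set 1388920_at. Its signal ran from 51.8 to 72.3 with a median of 61.25 on the normal diet and from 61.9 to 85.2 with a median of 69.15 on the salt+fat diet at 2 weeks. At 8 weeks it ran from 69.3 to 97.7 with a median of 78.9 on the normal diet and from 54.3 to 74 with a median of 63.55 on the salt+fat diet. All 6 salt+fat arrays lay above the normal diet median at 2 weeks and below it at 8 weeks, although the groups overlapped at both times. The differences were 0.17 ± 0.11 at 2 weeks (limma adjusted p = 0.360) and −0.29 ± 0.11 at 8 weeks (unadjusted p = 0.0118, adjusted p = 0.0906). The interaction, −0.45 ± 0.15, had an unadjusted p of 0.00527 and an adjusted p of 0.215. On the normal diet the difference over time was 0.33 ± 0.11 (adjusted p = 0.326). The second Bmp6 probe set, 1388201_at, ran from 4.1 to 35.5 with 0 of 24 arrays above the 40th percentile.

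Tgfbr3, or betaglycan, is a co-receptor that presents TGF-beta ligands to the kinase receptors. Probe set 1387484_at had medians of 135.35 and 112.85 on the normal and salt+fat diets at 2 weeks and 143.95 and 107.7 at 8 weeks. The differences were −0.33 ± 0.17 (limma adjusted p = 0.254) and −0.29 ± 0.17 (adjusted p = 0.311), with 4 and 5 of 6 arrays below the normal diet median. The dimmer probe set 1369219_at ran from 8.8 to 79.8, and its differences were −0.34 ± 0.30 (adjusted p = 0.549) and 0.02 ± 0.30 (adjusted p = 0.972).

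Smad7 encodes the inhibitory SMAD that TGF-beta induces and that blocks the TGF-beta receptors in turn. Its 3 probe sets were designed from the same sequence. On 1368897_at the medians were 83.65 and 72.6 on the normal and salt+fat diets at 2 weeks and 87.4 and 61.85 at 8 weeks. The differences, −0.35 ± 0.16 at both times, were not called (limma adjusted p = 0.179 and 0.168). On 1368896_at the difference was 0.29 ± 0.20 at 2 weeks (adjusted p = 0.423) and −0.29 ± 0.20 at 8 weeks (adjusted p = 0.4001). The within-array ratio of these Smad7 probe sets differed at 2 weeks by 0.63 (exact permutation p = 0.0498, adjusted over 6 tests 0.149). The third, 1368898_at, was above the 40th percentile on 1 of 24 arrays and ran from 9 to 57.7.

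Ccn2, also called connective tissue growth factor, is a matrix protein gene that TGF-beta induces. Its signal ran from 683.4 to 1440.1 with a median of 946.55 on the normal diet at 2 weeks and from 582.8 to 1523.8 with a median of 690.3 on the salt+fat diet. At 8 weeks it ran from 631.7 to 951.9 with a median of 714.8 on the normal diet and from 411.6 to 1440 with a median of 975.7 on the salt+fat diet, so that at each time the salt+fat arrays spread on both sides of the normal diet arrays. The diet differences were −0.29 ± 0.23 at 2 weeks (limma adjusted p = 0.504) and 0.25 ± 0.23 at 8 weeks (adjusted p = 0.563), and the interaction was 0.54 ± 0.33 (adjusted p = 0.559). The 95% interval at 8 weeks, −0.23 to 0.73, holds both a fall and a rise.

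The rest of the pathway was described through a list of 76 other genes by role, taking for each gene the probe set that was brightest on average. Of these, 58 had a probe set of their own symbol and 47 passed the filter. At 2 weeks 4 rose and 1 fell, 10.6% of the 47, near the 8.74% of all probe sets called. At 8 weeks 6 rose and 1 fell, 14.9%, against 9.14% of all probe sets called, 5.63% higher and 3.51% lower. The median differences over the 47 were 0.04 at 2 weeks and 0.02 at 8 weeks. In the interaction limma called 0 of the 47, against 0.382% of all probe sets. In the time comparison on the normal diet it called 0, against 0.0392%. On the salt+fat diet 3 rose over time (6.38%, against 2.22% of all probe sets called higher).

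Of 12 secreted inhibitors and other modulators, 2 were called higher at 2 weeks (4.55% of all probe sets) and 3 at 8 weeks (5.63% of all). Fst, or follistatin, which binds activins and some BMPs, ran from 70.8 to 115 on the normal diet and from 146.2 to 218.6 on the salt+fat diet at 2 weeks, and from 53 to 138.2 and 161.4 to 180.1 at 8 weeks. Its groups did not overlap at either time. The differences were 0.93 ± 0.16 (limma adjusted p = 0.000343) and 1.07 ± 0.16 (adjusted p = 4.18e-05), and its second probe set, 1387843_at, was called higher at both times too (1.08 and 1.25). Sostdc1, a BMP antagonist also known as USAG-1 that is made in the distal tubule, ran from 608.1 to 713.8 on the normal diet and from 870 to 1106.5 on the salt+fat diet at 2 weeks, without overlap, a difference of 0.63 ± 0.09 (adjusted p = 4.94e-05). The part of the tubular marker differences given above in that of Sostdc1 was not tested.

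At 8 weeks Dcn, or decorin, a matrix proteoglycan that binds TGF-beta, rose by 0.79 ± 0.14 (limma adjusted p = 0.000577), from 657.8 ± 89.0 to 1172 ± 329 (SD, n = 6). Tgif1, a nuclear repressor of SMAD-driven transcription, rose by 0.81 ± 0.16 (adjusted p = 0.00127), and its salt+fat arrays, 116.9 to 280, all exceeded the normal diet arrays, 82 to 110.4. The fibroblast and macrophage marker sums given above were higher in the same 8-week group, and their part in the 8-week differences of the pathway genes was not tested. Over time on the salt+fat diet Tgif1 rose by 0.74 ± 0.16 (adjusted p = 0.00649). Fkbp1a, which holds the type I receptor inactive, rose over time by 0.25 ± 0.07 (adjusted p = 0.0343), a call lost in 7 of 12 fits that left out 1 array, with the fat index (adjusted p = 0.115) and with the spike-in level (adjusted p = 0.118). Of its other probe sets, 1369621_s_at rose over time by 0.56 ± 0.14 (adjusted p = 0.0160) and was higher at 8 weeks by 0.58 ± 0.14 (adjusted p = 0.00694), whereas 1398828_at, at 0.29 ± 0.09 over time, was not called (adjusted p = 0.0907).

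Among 10 target genes, 1 was higher at 2 weeks, where 4.55% of all probe sets were, and 3 at 8 weeks, where 5.63% were. Junb, an immediate early transcription factor, was higher by 0.46 ± 0.12 at 2 weeks (limma adjusted p = 0.0163), a call lost with the fat index (adjusted p = 0.103), the GAPDH ratio (adjusted p = 0.121) or the spike-in level (adjusted p = 0.0570) in the model. It was also called at 8 weeks, by 0.38 ± 0.12 (adjusted p = 0.0438), a value named after it was seen. Tsc22d1, a TGF-beta-stimulated transcription regulator, was higher at 8 weeks by 0.50 ± 0.10 (adjusted p = 0.00235) and rose over time on the salt+fat diet by 0.57 ± 0.10 (adjusted p = 0.00161). Klf10, an early TGF-beta-induced zinc finger gene, was higher at 8 weeks by 0.97 ± 0.30 (adjusted p = 0.0403), a call lost in 9 of 12 fits that left out 1 array, where the difference was 0.74 to 1.21, and with the spike-in level (0.73, adjusted p = 0.238). Its group means were 93.9 and 112.4 on the normal and salt+fat diets at 2 weeks and 57.6 and 103.9 at 8 weeks. The normal diet arrays at 8 weeks ran from 16.9 to 118.6.

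Of the 8 tested genes that this list files under ligands, Bmp1 and Inha among them, 1 was called. This was Bmp7, the ligand made by the renal tubule. It fell by 0.26 on the log2 scale at 2 weeks (SE 0.07, limma adjusted p = 0.0186), from 413.7 ± 24.3 to 343.2 ± 22.9 (SD, n = 6), without overlap. That call was lost with the fat index (−0.24, adjusted p = 0.176), the GAPDH ratio (−0.29, adjusted p = 0.0583) or the spike-in level (−0.27, adjusted p = 0.0749) in the model, and the part of the tubular marker differences was not tested. Ltbp1, which tethers latent TGF-beta, was higher at 2 weeks by 0.46 ± 0.13 (adjusted p = 0.0300), 1 of 4 latency genes, and lost its call in 6 of 12 fits that left out 1 array. With the spike-in level it was 0.28 (adjusted p = 0.334), with the GAPDH ratio 0.52 (adjusted p = 0.0721), and without the filter its adjusted p was 0.0503. Acvr2a, an activin receptor, was lower at 8 weeks by 0.47 (SE 0.14, adjusted p = 0.0353), 1 of 7 receptors, and lost its call in 7 of 12 such fits and, at −0.45 (adjusted p = 0.111), without normal diet arrays 1 and 2 together. Klf10 was likewise 0.85 (adjusted p = 0.101) without those arrays. Of 6 SMADs tested limma called 0 in either diet comparison. Over all probe sets 8.74% were called at 2 weeks and 9.14% at 8 weeks. Counts this small do not set the ligands, latency genes, receptors or SMADs apart from those shares.

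**Figure D4:**
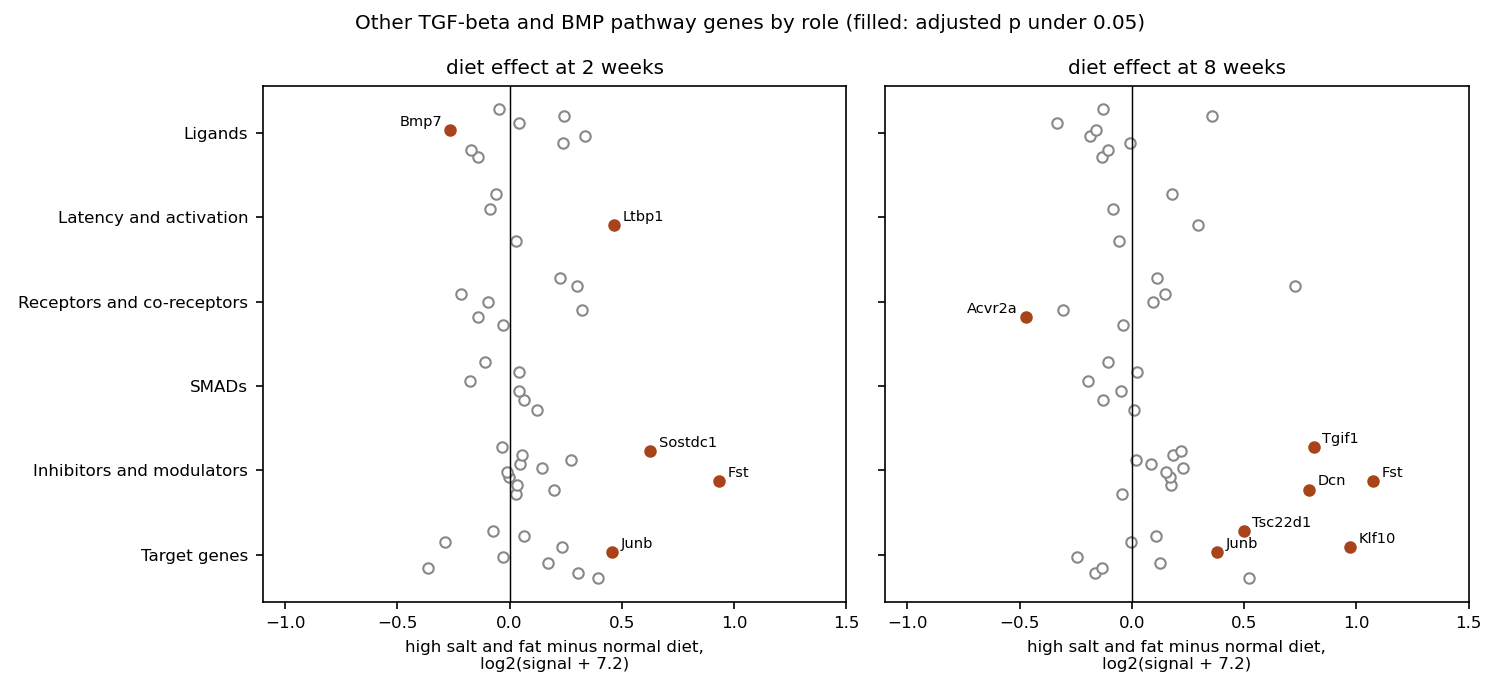
Diet differences of the 47 tested genes of the wider pathway list by role, as salt+fat minus normal diet on the log2(signal + 7.2) scale, at 2 weeks (left) and 8 weeks (right), 1 point per gene. Filled, named points passed an adjusted p of 0.05: 4 higher and 1 lower at 2 weeks, 6 higher and 1 lower at 8 weeks.

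The genes whose signal followed those of the called members most closely were found as the smallest mean absolute difference of standardised log2 signals over the 24 arrays, among 8645 probe sets with 1 symbol. For Grem1 these were Pofut2 (0.48), Selenos (0.50) and Nans (0.50), where the median over all candidates was 1.07. For Tgfbr1 probe set 1369504_at they were Akt2 (0.42), Cebpg (0.45) and Kitlg (0.45), with a median of 1.10. These genes were picked for following the members on the same arrays, so their own diet differences are not given.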

How the data were processed

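Whole kidneys were pulverised and biotin-labelled cRNA was made from roughly 5 µg of total RNA, per the labels' protocols. The authors deposited intensity values, MAS5 signals per the submitters' processing notes, 1 per probe set and array. The MAS5 version and scaling target are not given in the sources used here. Trimmed array means (2% off each end) were 150.03 to 150.04, which shows that every array carried the same scaling. Symbols came from the platform annotation, which can be old.

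From these, log2(signal + 7.2) was computed, 7.2 being 0.1 times the median of the array medians, and 57 array controls were left out. Probe sets above the 40th percentile of their array in at least 6 of 24 arrays were tested with limma 3.58.1 (lmFit, contrasts.fit, eBayes with trend) in R 4.3.3, two-sided, for 5 comparisons. Single measures were compared with exact permutation tests. Titles number the animals within a group; over 36 same-number pairs the correlation of deviations was −0.147 to 0.162, with 5 above 0.1, so the numbers were not taken as pairs. Alternatives were other pseudocounts, normalizations, filters, variance models, array weights, a replicate block, covariates and left-out arrays.

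The named pathway genes are, in each diet comparison and the interaction, up to 6 called genes of the list with the smallest p, and up to 3 in each time comparison; Junb at 8 weeks lies outside that rule. Members and lists were chosen with earlier results of these data known. The procedure was tested on simulated data. With 6 arrays a group, their number limits the precision.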

Additional observations from a re-analysis of the deposited data

Results flagged for a closer look

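In 4 of the 60 groups of 6 arrays checked for the members, 1 array lay far from the others, its gap to the nearest, as a share of the group's range, being over Dixon's 95% critical value. Chance alone gives about 1 such group in 20. The highest array of Tgfb2 probe set 1387172_a_at on the salt+fat diet at 2 weeks had 34.5, against 10 for the next, a gap of 0.888 of the range, and this probe set was below the filter. For Ccn2 in the same group the highest array had 1523.8 against 899.4 for the next, a gap of 0.664. For Smad7 probe set 1368897_at on the salt+fat diet at 8 weeks the highest array had 102.4 against 69.1, a gap of 0.701. For Tgfbr3 probe set 1387484_at on the normal diet at 2 weeks the highest array had 191.4 against 141.1, a gap of 0.652.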

How the results depend on the processing

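The 2 member probe sets called for diet at 2 weeks became 1 with no filter, 1 with a filter at the 60th percentile, 0 with the fat index as a covariate, 0 with the GAPDH ratio, 1 with the spike-in level, and 1 to 2 with 1 array left out. The 1 called for time on the salt+fat diet became 0 with the 60th percentile filter, the fat index, the GAPDH ratio or only the groups compared, and 0 to 1 with 1 array left out. With the 60th percentile filter 4 member probe sets were tested. Tgfbr1 probe set 1369504_at was not among them, so its calls were not tested there rather than lost. The 1 called for time on the normal diet became 0 with eBayes without trend, each of the 3 covariates or only the groups compared, and 0 to 1 with 1 array left out. At 8 weeks and in the interaction the count was 0 in every alternative run. Replacing Tgfbr1 probe set 1376636_at by the mean of both probe sets turned its direction, to −0.21 at 2 weeks and 0.26 in the interaction. This came by construction, since the other probe set went the other way. Over time on the salt+fat diet 1376636_at had no clear direction of its own (−0.0048 ± 0.11, limma adjusted p = 0.990), and the mean gave 0.36.

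Over all probe sets, the 892 calls at 2 weeks became 232 with the fat index, 314 with the GAPDH ratio and 482 with the spike-in level. The 933 at 8 weeks became 497 with the spike-in level and 542 without normal diet arrays 1 and 2. The 39 of the interaction became 80 with array weights, 13 with the fat index, 4 with the GAPDH ratio and 0 with the spike-in level. The 360 for time on the salt+fat diet became 632 with array weights and 223 with only the groups compared. The 4 for time on the normal diet became 2 with median centring, 9 without those 2 arrays, and 0 without trend, with each covariate or with only the groups compared. With 1 array left out the counts ran over 598 to 986 at 2 weeks, 543 to 1120 at 8 weeks, 22 to 50 in the interaction, 220 to 507 for time on the salt+fat diet and 0 to 10 for time on the normal diet. The causes were not tested.

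With the replicate number as a block, limma called the same number of members in each of the 5 comparisons, with Grem1 at 0.93 and Tgfbr1 1369504_at at −0.63 at 2 weeks, and 892, 922, 41, 354 and 5 of all probe sets in the order of the preceding ranges. Acvr2a (adjusted p = 0.0526) and Fkbp1a (adjusted p = 0.0503) lost their calls. Dim signals limit Tgfb1, Tgfb2 and the weaker probe sets of Bmp6, Smad7 and Tgfbr3.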
